A study of Homo sapiens with 6 samples.

Results

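The genes described here encode the dual-specificity phosphatases (DUSP), the Sprouty and SPRED proteins, and 6 further genes that often serve as transcriptional readouts of MAP kinase signalling: ETV1, ETV4, ETV5, PHLDA1, PHLDA2 and MYC. The rule that picks them reads gene symbols and no measured value, although it was drawn up with earlier results of these data known, and 37 of the 58735 genes listed in the files met the rule: 24 DUSP genes, SPRY1 to SPRY4, SPRED1 to SPRED3 and the 6 others. MUM2B, a human line that the labels call melanoma, was grown in medium with serum and its total RNA was sequenced in 6 libraries. The 3 EV libraries came from cells that stably carried an empty vector, and the 3 LACTB libraries from cells with stable overexpression of LACTB, a mitochondrial serine beta-lactamase-like protein. The labels give neither the promoter of the vector nor whether each group was 1 clone or a pool, and they do not say whether replicates were separate cultures, so the p-values reflect no more than the spread among these libraries, which may be technical.

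A mitogenic signal passes from a receptor through RAS and RAF to the kinases MEK and ERK, while stress signals reach the related kinases JNK and p38. ERK in turn raises transcription of its own inhibitors. DUSP phosphatases of the MAP kinase phosphatase (MKP) class remove phosphate from the activated kinases, and Sprouty and SPRED proteins act further upstream, at RAS and RAF. In melanoma the pathway is commonly switched on by mutation, and the RNA of DUSP4, DUSP6, SPRY2, SPRY4, ETV4, ETV5 and PHLDA1 is widely used as a readout of its activity.

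The libraries held 16978799 to 18395631 reads in genes, and the introduced gene matched every label: LACTB stood at 3.39 to 4.71 FPKM in the 3 EV libraries and at 161.5 to 173.9 FPKM in the 3 LACTB libraries. FPKM is a level scaled to exon length and library size, so values can be set side by side between genes. Of 12 melanocyte markers, 11 had a mean under 1 FPKM, OCA2 and TRPM1 had no read, and RAB38 at 11.6 FPKM made up most of the sum, which was 11.3 to 13.6 in EV and 13.7 to 15.0 in LACTB libraries. Of 7 epithelial markers, 5 had a mean under 1 FPKM and KRT5 had no read. Led by KRT8 at 174.3 FPKM, they summed to 340.3 to 351.8 FPKM in EV and to 304.2 to 311.3 FPKM in LACTB libraries. Neither the melanocyte nor the epithelial sum overlapped between the groups, and neither did 47.4% of all tested genes taken singly. The endothelial, fibroblast and immune markers each summed to under 1 FPKM in every library. The share of mitochondrial reads was 3.61% in EV replicate 3 and 4.65% to 5.62% in the other 5 libraries. The part of these differences in the results below was not tested. In bulk RNA, fewer cells with a transcript and less of it per cell cannot be told apart.

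Promoter sequences of 27 of the 37 genes were found in RefSeq (GRCh38.p14), with 44 start sites among them. No entry was found for DUSP4, DUSP5, DUSP12, DUSP13, DUSP26, DUSP27, ETV4, ETV5, MYC and PHLDA2. The 250 bases before the start are shown for 4 genes: DUSP1 and ETV1, which fell in LACTB cells, DUSP7, which rose, and DUSP8, the only other gene with a cyclic AMP response element (CRE) match. Capitals mark the 2 motifs found in them, TGACGTCA (the CRE) and CACGTG (the E-box), and ETV1 is shown at the start site farthest upstream of its 6. The windows are chr5:172771196-172771445 for DUSP1, chr7:13991426-13991675 for ETV1, chr3:52056572-52056821 for DUSP7 and chr11:1572272-1572521 for DUSP8, all on the minus strand.
DUSP1: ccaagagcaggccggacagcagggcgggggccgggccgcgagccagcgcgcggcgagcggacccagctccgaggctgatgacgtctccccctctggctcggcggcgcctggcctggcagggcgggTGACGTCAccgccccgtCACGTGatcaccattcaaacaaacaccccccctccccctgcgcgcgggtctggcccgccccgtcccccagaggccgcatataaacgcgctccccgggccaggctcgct
ETV1: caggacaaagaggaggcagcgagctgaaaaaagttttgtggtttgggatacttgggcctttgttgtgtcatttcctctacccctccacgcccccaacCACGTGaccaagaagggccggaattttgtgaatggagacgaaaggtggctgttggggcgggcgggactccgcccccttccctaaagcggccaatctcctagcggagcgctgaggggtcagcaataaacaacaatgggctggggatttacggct
DUSP7: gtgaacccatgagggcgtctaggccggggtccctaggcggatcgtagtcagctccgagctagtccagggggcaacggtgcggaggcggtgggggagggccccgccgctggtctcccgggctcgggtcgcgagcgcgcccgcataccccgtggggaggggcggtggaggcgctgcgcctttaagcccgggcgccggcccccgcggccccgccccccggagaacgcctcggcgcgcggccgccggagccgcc
DUSP8: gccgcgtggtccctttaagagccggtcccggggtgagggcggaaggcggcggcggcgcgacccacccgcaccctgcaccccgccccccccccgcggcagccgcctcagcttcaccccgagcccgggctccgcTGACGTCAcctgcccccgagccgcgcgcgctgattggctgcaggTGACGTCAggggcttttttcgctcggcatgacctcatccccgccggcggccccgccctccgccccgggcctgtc
The CRE stood in 2 of the 44 windows, 125 bases before the start of DUSP1 and 118 and 74 bases before that of DUSP8, against 1.65% of 35116 windows of the same length over all RefSeq starts. The E-box stood in 4 windows, those of DUSP1, DUSP2, DUSP28 and ETV1, against 6.34% of all windows. The AP-1 motif TGANTCA was found in 1 window (SPRED3; 6.57% of all windows) and the amino acid response motif TGATGNAA in 1 (SPRED2; 3.14%). The ETS motif CCGGAAGT and the CArG box were in none of the 44, against 3.42% and 1.159% of all windows. Both strands were searched and no matches overlapped. Some windows of the same gene do overlap, as for ETV1, DUSP11 and DUSP15, so the 44 are not all separate stretches. A match describes the letters of a window and is not a binding site.

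Of the 37 genes, 24 averaged 1 FPKM or more across the libraries and were tested; each of these also had a mean above 1 FPKM in both groups. In the LACTB cells 2 of the 24 rose (DUSP4 and DUSP7), 6 fell (DUSP1, DUSP5, SPRY2, ETV1, ETV4 and MYC), and 16 did not pass the test. Calls rest on limma, run on log2(FPKM + 1), with p-values adjusted by Benjamini-Hochberg over all 11875 tested genes and a threshold of 0.05. Among all tested genes 32% passed it, 14.8% with a rise and 17.2% with a fall, so the 8 of 24 called here (33.3%) lay near that background. The median log2 fold change of the 24 was -0.04, against -0.01 for all tested genes, and the median size of the change was 0.16 against 0.14. In 13 of the 24 the groups did not overlap (47.4% of all tested genes). Without LACTB replicate 2, 1115 genes rose over the whole table, against 1758 with all libraries, and 1 member did.

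**Figure D1:**
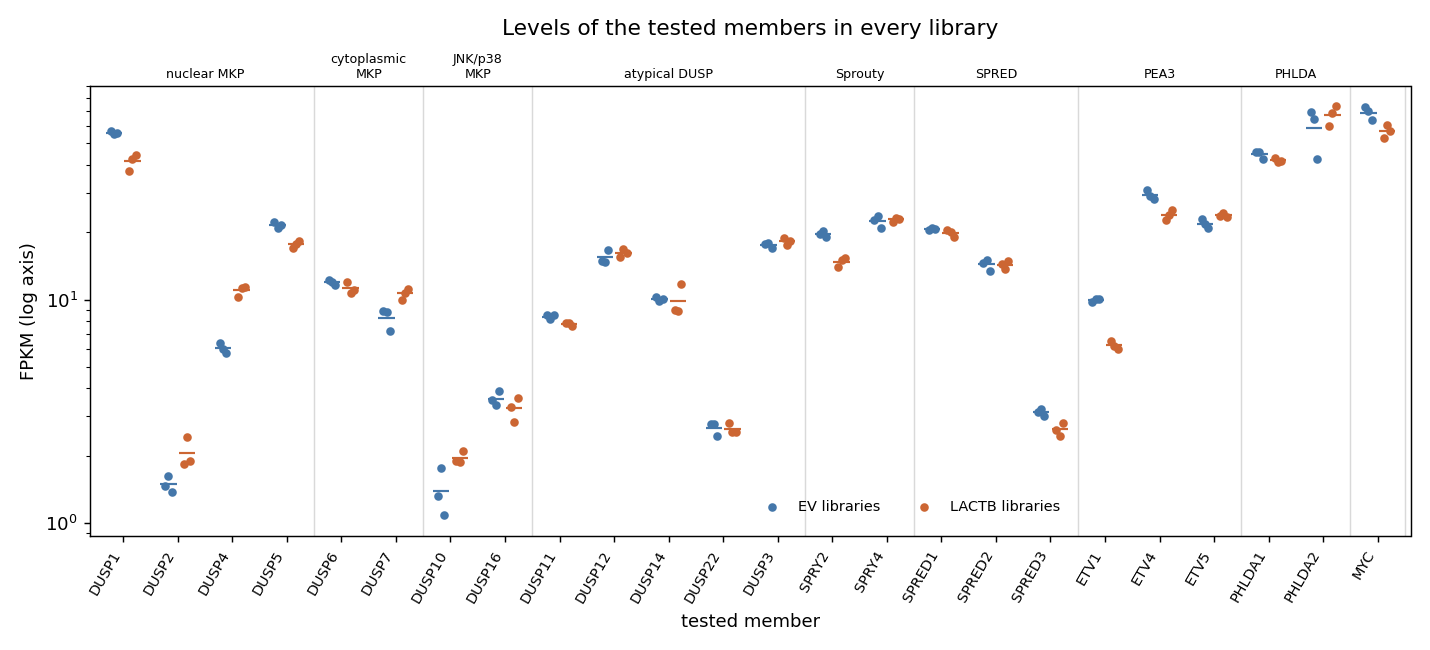
Levels in FPKM (log axis) of the 24 tested genes, ordered by role. Each point is 1 library, with EV in blue and LACTB in orange, and short bars are group means. DUSP4 and ETV1 stand farthest apart between groups, and PHLDA2 shows 1 low EV library at 42.4 FPKM.

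The inducible nuclear phosphatases went in opposite directions. Gene positions here and below are those of GENCODE 29 on GRCh38. DUSP4 (chr8:29333064-29350668, minus strand), an ERK and JNK phosphatase whose loss has been described in melanoma and other tumours, stood at 6.38, 5.99 and 5.78 FPKM in EV replicates 1 to 3 and at 10.3, 11.3 and 11.4 FPKM in LACTB replicates 1 to 3. Every LACTB library lay above every EV library. The rise was 1.82-fold, from 6.05 ± 0.303 to 11.01 ± 0.617 FPKM (SD, n = 3 each), on 756 to 1489 reads per library, and limma put the log2 change at 0.77 (SE 0.056, adjusted p = 0.000144). DUSP1 (chr5:172768090-172771195, minus strand), the early-response phosphatase for p38, JNK and ERK, was the most abundant phosphatase of the family in both groups. Its EV libraries lay at 56.9, 54.9 and 55.8 FPKM and its LACTB libraries at 37.5, 42.7 and 44.4 FPKM, all lower. The fall was 1.35-fold, to 41.5 ± 3.61 FPKM from 55.9 ± 0.984 FPKM (log2 change by limma -0.42, SE 0.064, adjusted p = 0.00324).

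DUSP5 (chr10:110497838-110511544, plus strand), a nuclear phosphatase specific to ERK, stood at 22.3, 21.0 and 21.5 FPKM with EV and at 17.0, 17.7 and 18.4 FPKM with LACTB. The groups were apart by more than the spread within either, and the fall was 1.22-fold (log2 change by limma -0.27, SE 0.045, adjusted p = 0.00443). DUSP2, the phosphatase first described in activated lymphocytes, was near the lower end of the tested range, on 48 to 81 reads per library. Its values were 1.47, 1.63 and 1.38 FPKM with EV and 1.83, 2.44 and 1.90 FPKM with LACTB. The groups did not overlap, yet DUSP2 did not pass the threshold (log2 fold change 0.29, 95% interval 0.07 to 0.51; limma, adjusted p = 0.0559, and 0.043 to 0.164 over 15 alternatives). DUSP5 has processed pseudogene copies in the annotation, so some of its reads can be shared with them.

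Among the cytoplasmic phosphatases of ERK, DUSP7 rose while DUSP6 did not pass the test. DUSP7 (chr3:52048919-52056550, minus strand) lay at 8.85, 8.78 and 7.22 FPKM in EV libraries and at 10.0, 10.7 and 11.2 FPKM in LACTB libraries. All LACTB values were higher, and EV replicate 3 was the lowest. The change was 1.29-fold (log2 change by limma 0.33, SE 0.081, adjusted p = 0.0199). The call was lost without LACTB replicate 2 (adjusted p = 0.065) or LACTB replicate 3 (adjusted p = 0.0678) and without a filter on low values (adjusted p = 0.072); its 16 alternatives ran from 0.00112 to 0.072. Without EV replicate 3 the log2 fold change was 0.25 (limma, adjusted p = 0.0235).

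DUSP6, the main feedback phosphatase of ERK, stood at 12.2, 12.0 and 11.6 FPKM with EV and at 12.0, 10.7 and 11.1 FPKM with LACTB. The groups overlapped, and the 95% interval of its log2 fold change ran from -0.20 to 0.04 (limma, adjusted p = 0.297). DUSP9, the third of this class, had 2 reads over the EV and 1 over the LACTB libraries.

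**Figure D2:**
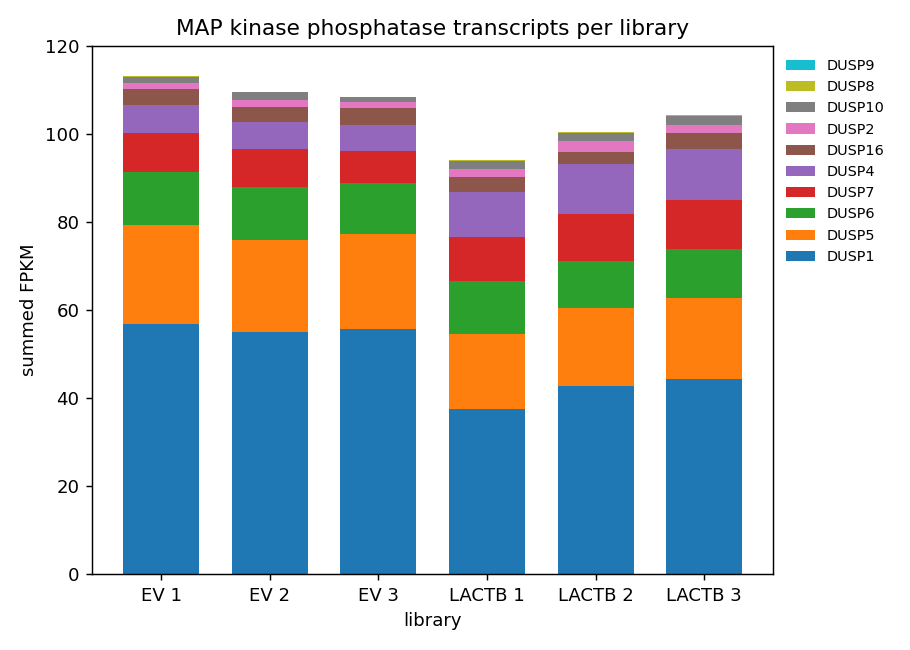
FPKM of the 10 typical MAP kinase phosphatases stacked for each library. The EV bars reach 108.4 to 113.1 FPKM and the LACTB bars 94.1 to 104.3 FPKM, with a smaller DUSP1 part and a larger DUSP4 part in all LACTB libraries.

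The makeup of the phosphatase transcripts differed between the cell groups. Summed over the 10 typical MAP kinase phosphatases, the level was 113.1, 109.5 and 108.4 FPKM in EV libraries and 94.1, 100.5 and 104.3 FPKM in LACTB libraries, a ratio of the means of 0.903. DUSP1 made up 50.6% ± 0.709 of that sum with EV and 41.6% ± 1.54 with LACTB (SD, n = 3 each). The share of DUSP4 was 5.48% ± 0.153 and 11.05% ± 0.182, and that of DUSP7 was 7.50% ± 0.734 and 10.7% ± 0.0535. The sum of the 4 nuclear enzymes was 85.0 ± 1.84 and 72.3 ± 4.98 FPKM, and the sum of the 3 cytoplasmic ones 20.2 ± 1.204 and 21.9 ± 0.424 FPKM. In EV cells DUSP4 lay below DUSP7 and DUSP6 by more than their SDs. In LACTB cells the order was DUSP6 (11.3 ± 0.674), DUSP4 (11.01 ± 0.617) and DUSP7 (10.6 ± 0.604 FPKM), and neighbours in that order differed by less than their SDs. These sums and shares were chosen after their values were seen and carry no test.

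Phosphatases directed mainly at JNK and p38 gave no call. DUSP10, which acts on both kinases, stood at 1.33, 1.76 and 1.09 FPKM with EV and at 1.90, 1.87 and 2.10 FPKM with LACTB, on 57 to 110 reads per library. The groups did not overlap, and the log2 fold change was 0.32 (95% interval 0.05 to 0.58; limma, adjusted p = 0.0694); voom on recovered reads gave adjusted p = 0.0278, and the 15 alternatives ran from 0.0229 to 0.201. DUSP16, a JNK phosphatase, stood at 3.55, 3.36 and 3.92 FPKM with EV and at 3.32, 2.82 and 3.62 FPKM with LACTB, with overlapping groups (limma, adjusted p = 0.339). With limma, 0 of these 2 tested genes passed, 1 had an unadjusted p under 0.05, and voom called 1. Over all 11875 tested genes, 5029 had an unadjusted p under 0.05 with limma, and voom called 4342.

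DUSP8, the remaining member of that class, was too low to be tested. It had 9, 6 and 6 reads in EV and 12, 20 and 16 reads in LACTB libraries, all LACTB counts being higher. The ratio of the summed reads, 21 and 48, was 2.31 after scaling for depth, and its exact 95% interval, for counting error alone, was 1.35 to 4.05. When limma was run without a filter, its adjusted p was 0.132. DUSP8 has pseudogene copies in the annotation as well.

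The atypical DUSP enzymes, small phosphatases without the kinase-docking domain, gave no call, and most were hardly detected. Of 14 members, 5 were tested; limma called 0 of them, 0 had an unadjusted p under 0.05, and voom called 0. DUSP3, which can act on ERK and JNK, stood at 17.5 ± 0.403 FPKM with EV and 18.2 ± 0.660 FPKM with LACTB. DUSP12, a zinc-binding phosphatase, stood at 15.4 ± 1.12 and 16.2 ± 0.718 FPKM, and DUSP22, a regulator of JNK, at 2.66 ± 0.186 and 2.64 ± 0.149 FPKM. The 95% intervals of the log2 fold change were -0.05 to 0.15 for DUSP3, -0.08 to 0.21 for DUSP12 and -0.16 to 0.15 for DUSP22. DUSP11, an RNA phosphatase, lay at 8.50, 8.16 and 8.49 FPKM with EV and at 7.82, 7.87 and 7.64 FPKM with LACTB, without overlap (log2 fold change -0.10; limma, adjusted p = 0.118).

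DUSP14, another regulator of JNK signalling, had 1 high library: it stood at 10.3, 9.84 and 10.1 FPKM with EV and at 8.95, 8.93 and 11.7 FPKM with LACTB. Without LACTB replicate 3 its log2 fold change moved from -0.04 to -0.15 (limma, adjusted p = 0.0643). Of the 9 untested atypical members, DUSP18, DUSP19 and DUSP28 had means of 0.124 to 0.829 FPKM per group. Their depth-scaled ratios of summed reads, LACTB over EV, were 1.21, 1.82 and 1.32. The exact 95% intervals, for counting error alone, were 0.977 to 1.51, 1.19 to 2.82 and 1.04 to 1.68. The groups of DUSP19 and DUSP28 overlapped, and no alternative called any of these genes. DUSP23 had 7 reads over the EV and 1 over the LACTB libraries, a ratio of 0.144 with an exact 95% interval of 0.0032 to 1.12, and DUSP15 and DUSP27 had 1 read each. DUSP13, DUSP21 and DUSP26 had no read in any library. A count of 0 allows up to 3 reads, which is 0.0703 to 0.0742 FPKM per library for DUSP13, 0.187 to 0.197 FPKM for DUSP21 and 0.0806 to 0.085 FPKM for DUSP26.

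Sprouty genes divided. SPRY2 (chr13:80335976-80340951, minus strand) stood at 19.6, 20.2 and 19.1 FPKM with EV and at 13.9, 15.0 and 15.3 FPKM with LACTB. All LACTB libraries lay lower, on 767 to 1115 reads per library. The fall was 1.33-fold (log2 change by limma -0.39, SE 0.048, adjusted p = 0.00129). SPRY4 lay at 22.8, 23.6 and 21.0 FPKM with EV and at 22.2, 23.2 and 23.0 FPKM with LACTB; the groups overlapped and the 95% interval of the log2 fold change was -0.10 to 0.14 (limma, adjusted p = 0.769). SPRY1 and SPRY3 were under 1 FPKM in all libraries and were not tested; SPRY1 stood at 0.475 ± 0.156 and 0.572 ± 0.0635 FPKM.

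The SPRED proteins, which recruit the RAS inhibitor neurofibromin to the membrane, gave no call. SPRED1 stood at 20.7 ± 0.276 FPKM with EV and 19.9 ± 0.694 FPKM with LACTB, and SPRED2 at 14.4 ± 0.784 and 14.3 ± 0.625 FPKM. Their 95% intervals of the log2 fold change were -0.15 to 0.04 and -0.13 to 0.13. SPRED3, the lowest of the family, lay at 3.14, 3.25 and 2.999 FPKM with EV and at 2.62, 2.46 and 2.80 FPKM with LACTB. Its groups did not overlap, and it missed the threshold narrowly (log2 change by limma -0.19, SE 0.061, adjusted p = 0.0527; 0.0378 to 0.165 over 15 alternatives, of which 5 called it lower). Limma called 0 of these 3 genes, 1 had an unadjusted p under 0.05, and voom called 1.

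**Figure D3:**
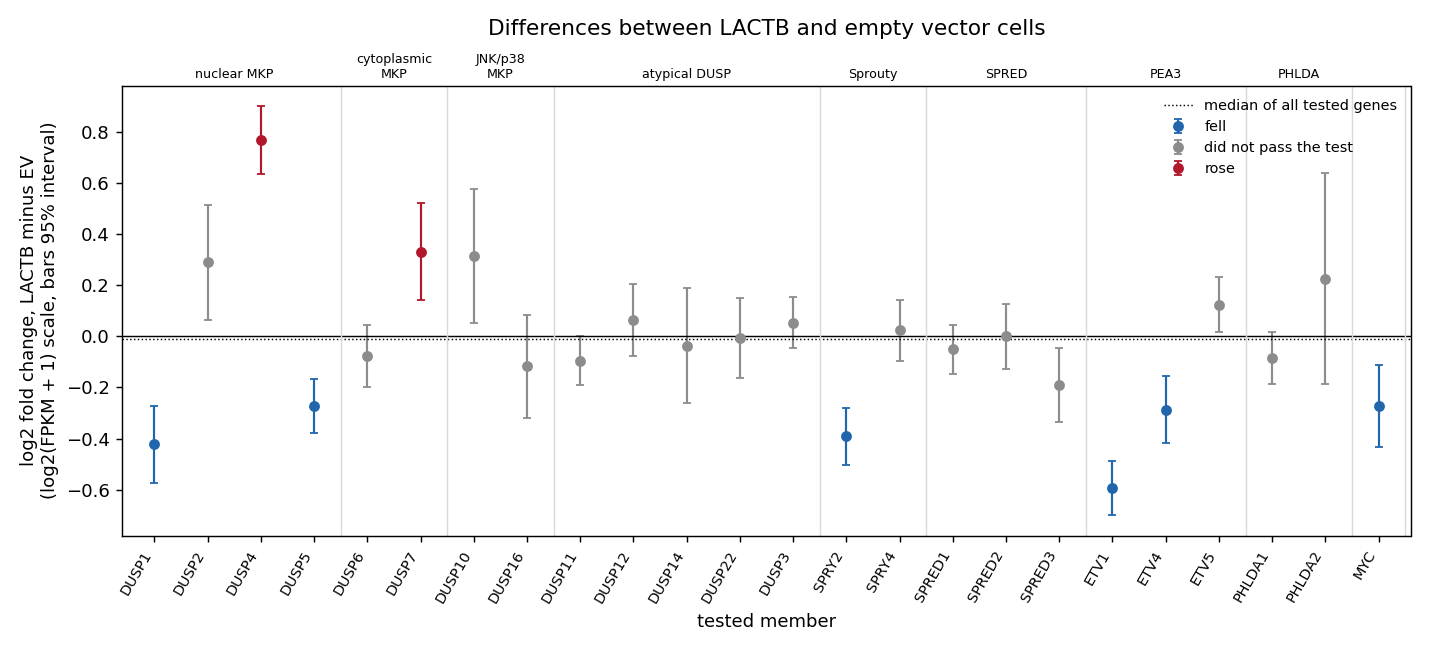
Log2 fold change (LACTB minus EV, on log2(FPKM + 1)) of the 24 tested genes, with 95% intervals from limma. Red marks the 2 genes that rose, blue the 6 that fell, and grey the 16 that did not pass the test; the dotted line is the median of all tested genes.

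The PEA3 group of ETS transcription factors, direct readouts of ERK in many cell types, also divided. ETV1 (chr7:13891228-13991425, minus strand), known as a lineage factor in some tumours, had the largest fall of all 24 tested members. It stood at 9.78, 10.1 and 10.0 FPKM with EV and at 6.54, 6.22 and 6.03 FPKM with LACTB, well apart. The fall was 1.59-fold, on 1029 to 1757 reads per library (log2 change by limma -0.59, SE 0.045, adjusted p = 0.000157). ETV4 (chr17:43527844-43579620, minus strand) lay at 30.9, 29.2 and 28.1 FPKM with EV and at 22.6, 23.8 and 25.2 FPKM with LACTB, again without overlap. It fell 1.23-fold (log2 change by limma -0.29, SE 0.055, adjusted p = 0.00826). ETV4 overlaps DHX8 on the other strand, which stood at 10.6 and 10.0 FPKM, and without known strand use their shared reads cannot be told apart.

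ETV5 did not follow the other PEA3 factors. It stood at 22.9, 21.8 and 20.8 FPKM with EV and at 23.7, 24.4 and 23.5 FPKM with LACTB, each LACTB library being the higher. Its log2 fold change of 0.12 (SE 0.045) did not pass the threshold (limma, adjusted p = 0.0777), and 2 of 16 alternatives called it higher: quantile normalization (adjusted p = 0.0287) and voom (adjusted p = 0.042), the range being 0.0287 to 0.224. In EV cells ETV4 exceeded ETV5 by more than their SDs, and in LACTB cells ETV4 (23.9 ± 1.33 FPKM) and ETV5 (23.9 ± 0.483 FPKM) stood level.

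**Figure D4:**
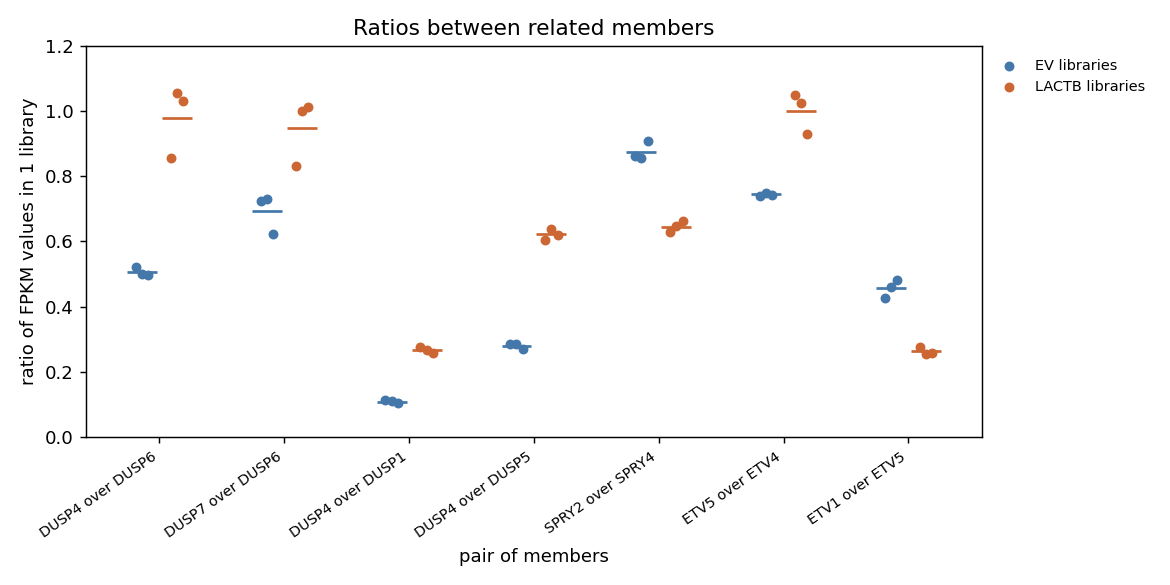
Ratio of the FPKM values of 2 related members within each library, EV in blue and LACTB in orange, with bars for group means. The ratio of DUSP4 to DUSP6 lies at 0.497 to 0.522 in EV and 0.856 to 1.05 in LACTB libraries. In none of the 7 pairs do the groups overlap, but the pairs were chosen after their values were seen and each holds a called member. Of all tested genes taken singly, 47.4% did not overlap either, and no share was taken for pairs.

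Ratios taken within each library do not depend on library size. DUSP4 over DUSP6 was 0.506 ± 0.0138 with EV and 0.980 ± 0.108 with LACTB (SD, n = 3 each), and DUSP4 over DUSP1 was 0.108 ± 0.00428 and 0.265 ± 0.00895. SPRY2 over SPRY4 was 0.875 ± 0.0282 and 0.646 ± 0.0167. ETV5 over ETV4 was 0.744 ± 0.0047 and 1.00 ± 0.0632. Each pair holds a called member and was chosen after its values were seen. The ratios therefore restate the calls of single genes and carry no test.

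The 2 PHLDA genes, which encode small pleckstrin-homology proteins, were abundant and gave no call (0 at an unadjusted p under 0.05 with limma, 0 with voom). PHLDA1, an ERK-responsive gene, lay at 45.6, 45.8 and 42.7 FPKM with EV and at 43.1, 41.4 and 41.8 FPKM with LACTB. PHLDA2, an imprinted growth-restraining gene of the placenta, had the widest spread of the tested members: 68.9, 63.9 and 42.4 FPKM with EV and 59.8, 68.6 and 73.4 FPKM with LACTB. The low value is that of EV replicate 3, whose mitochondrial share was also the lowest. The log2 change of PHLDA2 by limma was 0.23 (SE 0.176, adjusted p = 0.371), and without that library it was 0.01.

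MYC (chr8:127735434-127741434, plus strand), the growth-promoting transcription factor that ERK stabilises as a protein and induces as a transcript, was the most abundant member in EV cells. It stood at 72.4, 69.9 and 63.3 FPKM with EV and at 52.6, 60.4 and 56.6 FPKM with LACTB. All LACTB libraries lay below all EV libraries, by little for EV replicate 3 and LACTB replicate 2. The fall was 1.21-fold (log2 change by limma -0.27, SE 0.069, adjusted p = 0.0226). The call was lost without EV replicate 1, EV replicate 2, LACTB replicate 1 or LACTB replicate 3 (adjusted p = 0.0684, 0.0661, 0.0624 and 0.0638) and without a filter (adjusted p = 0.0768). Over its 16 alternatives the adjusted p ran from 0.00263 to 0.0768.

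Calls among genes of the kinase cascade, some of which act downstream of ERK, were no more frequent than among all tested genes. Of 38 genes in a list of the RAS-RAF-ERK cascade, 29 were tested; 1 rose and 6 fell (24.1% called, against 32% of all tested genes), and its median log2 change was -0.04 (-0.01 over all tested genes). PEBP1, the RAF kinase inhibitor protein, had the largest fall of the list, at 107.5, 109.9 and 102.7 FPKM with EV and 63.3, 73.1 and 71.7 FPKM with LACTB (log2 change by limma -0.62, SE 0.062, adjusted p = 0.000587). The adaptor FRS2, which links fibroblast growth factor receptors to RAS, fell from 8.48 ± 0.0844 to 6.48 ± 0.236 FPKM, and the RAS exchange factor SOS2 rose from 5.31 ± 0.067 to 6.63 ± 0.200 FPKM (limma, adjusted p = 0.0015 and 0.00397). Without EV replicate 2 or LACTB replicate 3 the list had 4 calls in place of 7.

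In the JNK and p38 arm, 3 of 23 tested genes rose and 4 fell (30.4% called, against 32%; 27 genes listed), and the median log2 change was -0.04. The p38 kinases divided by isoform. MAPK12 (p38 gamma) rose from 4.36 ± 0.127 to 5.51 ± 0.392 FPKM and MAPK11 (p38 beta) from 10.1 ± 0.378 to 12.9 ± 1.252 FPKM, while MAPK13 (p38 delta) fell from 3.28 ± 0.203 to 2.58 ± 0.0991 FPKM and MAPK14 (p38 alpha) from 13.4 ± 0.495 to 11.9 ± 0.276 FPKM (limma, adjusted p = 0.0116, 0.0132, 0.0177 and 0.0298). The JNK scaffold SPAG9 rose from 18.1 ± 0.332 to 21.7 ± 1.04 FPKM, and the kinase MAPK9 (JNK2) fell from 8.27 ± 0.384 to 7.02 ± 0.270 FPKM (limma, adjusted p = 0.0073 and 0.0191). MAPK11 and MAPK14 were named after their values were seen. The list held 4 calls without EV replicate 1 or LACTB replicate 2 and 3 without LACTB replicate 3. The call of MAPK9 was lost without LACTB replicate 2 or 3 (limma, adjusted p = 0.0704 and 0.065) and as TPM (adjusted p = 0.126). That of MAPK13 was lost without LACTB replicate 2 or 3, without EV replicate 1 and without a filter (limma, adjusted p = 0.0631, 0.0579, 0.0581 and 0.0525), and 8 of the 16 alternatives lost that of MAPK14 (adjusted p at most 0.199).

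**Figure D5:**
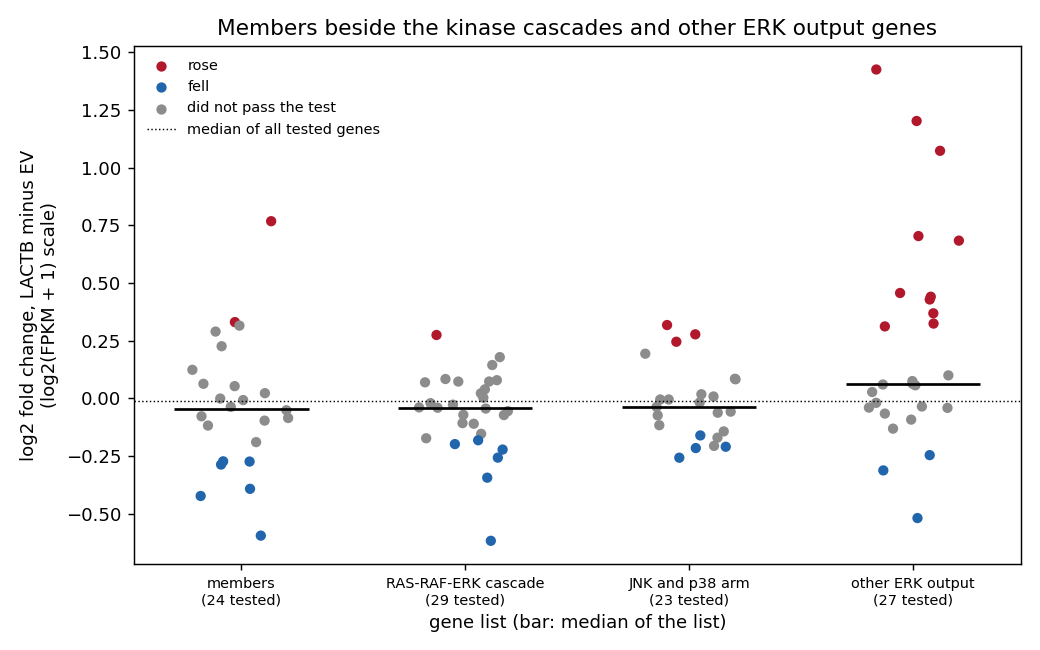
Log2 fold change (LACTB minus EV) of each tested gene among the members and 3 related lists; black bars are list medians and the dotted line is the median of all tested genes. The other ERK output list holds 11 genes that rose and 3 that fell, and the members 2 and 6.

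Further genes known to respond to ERK were listed apart from the members. Of 27 tested genes in that list (30 listed), 11 rose and 3 fell, 40.7% and 11.1% against 14.8% and 17.2% of all tested genes, and the median log2 change was 0.06. EGR1, an immediate early transcription factor, stood at 6.25, 6.87 and 5.78 FPKM with EV and at 18.3, 18.6 and 18.7 FPKM with LACTB, a 2.95-fold rise (log2 change by limma 1.43, SE 0.059, adjusted p = 1.1e-05). TFPI2, a secreted protease inhibitor, rose from 33.4 ± 0.791 to 78.2 ± 2.06 FPKM (limma, adjusted p = 5.18e-06). HMGA2, a chromatin protein, fell from 9.01 ± 0.717 to 5.98 ± 0.344 FPKM and the cyclin gene CCNA1 from 19.6 ± 0.208 to 15.6 ± 0.692 FPKM (limma, adjusted p = 0.00162 and 0.00226). Many of these genes also respond to other signals, and the list was drawn up with earlier results of these data known. RNA levels alone do not give the phosphorylation of ERK, which was not analysed here.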

How the data were processed

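The authors deposited 1 file per library with FPKM for each gene, per the file headers and names. The submitters' processing notes name GRCh38, DESeq2 1.16.1, HISAT2 2.0.5 and featureCounts 1.5.0-p3 without role or order; for strand use and shared reads the sources used here give nothing. All 58735 gene IDs matched GENCODE 29. FPKM times exon length gave whole multiples of 1 step per library for 100% of values above 0 (tolerance 0.1 reads), which gave reads and depth. The library size behind the FPKM was not the sum of reads in genes. That sum over the library size was 0.989 to 1.017 in EV and 0.981 to 0.987 in LACTB libraries.

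Limma 3.58.1 in R 4.3.3 (lmFit, eBayes with trend) was fitted to log2(FPKM + 1) of the 11875 genes averaging 1 FPKM or more, without covariates. This scale understates the change of low genes; changes given as a number of times are ratios of mean FPKM. As 1 of 16 alternatives, voom was run on those reads. Some of these fits were tested on simulated counts with the same spread setting for every gene and library, which is simpler than the spread in these data. Libraries of 1 group differed by a chi-square per degree of freedom of 1.97 to 11.2. The highest values, 10.8 and 11.2, set EV replicate 3 against EV replicates 1 and 2, and the other pairs reached at most 4.48. Each library counted as 1 sample, although these values do not show that the libraries were separate cultures.

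All members are accounted for by name; of each related list, up to 2 risen and 2 fallen genes with the smallest p are named, with LACTB. The rule for the members uses symbols only, but it and the lists were chosen with earlier results of these data known. Intervals cover counting error only where they rest on reads. Single values of some genes in the RAS-RAF-ERK list are not reported here.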

Additional observations from a re-analysis of the deposited data

How the results depend on the processing

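The 16 alternatives changed the pseudocount, the filter, the scaling, the variance estimate, the design, the tool or the set of libraries. The 6 members DUSP1, DUSP4, DUSP5, SPRY2, ETV1 and ETV4 passed the test under all 16, and of the 128 values of the 8 called members 10 lost the call (those of DUSP7 and MYC) and 0 changed sign. The members that rose numbered 1 of 34 tested without a filter, 1 of 24 with the replicate block and 4 of 24 with voom. They numbered 1 to 3 when single libraries were left out. Over all genes, 1155 of 6980 tested rose at a mean of at least 5 FPKM, against 1758 of 11875 in the fit described above. As TPM 1295 of 16070 fell, against 2038 of 11875 in that fit. With the replicate block 1155 of 11875 rose and 1324 fell, and with voom 2147 of 11875 rose. When single libraries were left out, 1115 to 1505 rose. The calls in the RAS-RAF-ERK list numbered 3 with the replicate block and 4 to 7 without single libraries. Those in the JNK and p38 list numbered 4 of 17 tested at 5 FPKM, 4 of 24 as TPM and 4 of 23 with the replicate block. Without single libraries they numbered 3 to 7. Same-numbered libraries did not deviate together (r of -0.126, 0.0194 and -0.0438 across genes, and no EV library correlated best with its own number). These values gave no sign of pairing by number, but they cannot show that same-numbered libraries were prepared apart. With the replicate block limma gave DUSP7 an adjusted p = 0.0548, MYC 0.0535 and MAPK9 0.0708. Signs turned only for members that did not pass the test: the log2 change of SPRED2 reached 0.0231 as TPM, 0.0113 with quantile normalization and 0.0132 with voom, and -0.0423 to 0.0311 without single libraries. DUSP22 reached 0.0133 as TPM and 0.0049 with voom, and -0.0499 to 0.0146 without single libraries. SPRY4 ran from -0.0226 to 0.0580 and DUSP14 from -0.1536 to 0.0227 without single libraries. The cause was not tested. Low counts of DUSP2, DUSP8 and DUSP10, and the 3 reads in a library that a count of 0 allows, limit what could be detected.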
